A study of Mus musculus with 36 samples.

Results

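The CXC chemokines of epididymal and bone marrow adipocyte preparations were described across 12 groups of mice: Cxcl1, Cxcl2, Cxcl3, Cxcl5, Cxcl9, Cxcl10, Cxcl12, Cxcl13, Cxcl14 and Cxcl16. Members were the probe sets whose gene symbol in the probe annotation was one of these names, which gave 1 probe set for each of the 10 genes, out of 35556 probe sets and 19938 gene symbols in the table. All mice were male and on the C57BL/6J background. Obesity was studied in 6-month-old ob/ob mice, which lack functional leptin and were kept on the control diet, and in C57BL/6J mice on a high fat diet (HFD, 60% of calories from fat) that were 6 or 14 months old. C57BL/6J mice on standard chow were 6, 14 or 18 months old. Each of these 6 kinds of mice gave epididymal (EPI) and bone marrow (BM) preparations, with 3 arrays per group and 36 in all, each from RNA pooled over several mice, so that the spread and the p-values given here are those between pools. Epididymal fat was digested with collagenase, whereas marrow was flushed from femurs and tibias and its red cells lysed before floating cells were collected, so the depot and the isolation method cannot be told apart. Both depots came from the same mice.

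Values are normalized log2 intensities of Mouse Gene 1.0 ST arrays, which ran between 1.93 and 14.6, and a difference of 1 on this scale is a 2-fold change. A gene was called changed where limma gave an adjusted p below 0.05, over all 23410 probe sets with a gene symbol, together with a change of at least 2-fold. The mean of 7 adipocyte markers was 11.4 to 12.8 in epididymal arrays and 6.64 to 8.67 in marrow arrays, and Lep (leptin) itself was 11.7 to 13.3 in epididymal and 3.77 to 7.18 in marrow arrays. The mean of 8 neutrophil markers ran the other way, at 4.99 to 9.39 in epididymal and 12.1 to 12.8 in marrow arrays, so the marrow preparations were rich in neutrophil transcripts and poor in those of adipocytes. The ob/ob allele is a base change in Lep that a probe set does not read, and Lep averaged 12.2 in epididymal ob/ob preparations and 12.9 in those of 6-month chow mice (adjusted p = 0.22 by limma), so it checked no label. A set of 8 arrays stood apart by small nucleolar RNA probe sets, whose mean was 7.22 to 8.56 in these arrays and 5.23 to 6.98 in the other 28. This set held all 3 EPI and all 3 BM arrays of 6-month HFD mice, array 1 of BM 6-month chow and array 3 of BM ob/ob, so that in epididymal preparations at 6 months HFD and the set cannot be told apart. An additional model term for these arrays (the set term) was therefore estimated from the groups that hold both kinds of array, and its values stand beside the members' calls that it made or ended. Those groups were marrow of 6-month chow and of ob/ob mice. In epididymal comparisons the set term was thus carried over from marrow, and whether it holds there was not tested. Where neither compared group holds an array of the set, the term leaves the difference unchanged and alters only its SE and p-value.

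CXC chemokines are small secreted proteins that direct the movement of leukocytes through receptors of the Cxcr family. Cxcl1, Cxcl2, Cxcl3 and Cxcl5 attract neutrophils through Cxcr2, and the genes of Cxcl1, Cxcl2 and Cxcl3 respond to NF-kB downstream of cytokines such as Tnf and Il1b. Cxcl9 and Cxcl10 are induced by interferons and attract activated T cells through Cxcr3, Cxcl13 attracts B cells through Cxcr5, Cxcl16 binds Cxcr6, and Cxcl12 keeps hematopoietic cells in the marrow through Cxcr4.

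The promoters of Cxcl1, Cxcl2, Cxcl3 and Cxcl10 are shown because, by the letters searched, 3 of them matched an NF-kB type motif and the other an interferon response type motif. Promoter windows (250 before to 50 after the start of the gene, RefSeq, GRCm38.p6) were at hand for 8 of the 10 members, without Cxcl5 and Cxcl16, and were searched on both strands for an NF-kB type motif (GGG, any 2 bases, then TTTCC) and an interferon response type motif (GAAA, any 2 bases, then GAAA). The capitals below mark the matches in the 100 bases of each window that hold them, written 5' to 3' on the strand of the gene, for Cxcl1 (chr5:90891129-90891228, plus strand), Cxcl2 (chr5:90903776-90903875, plus strand), Cxcl3 (chr5:90785983-90786082, plus strand) and Cxcl10 (chr5:92349040-92349139, minus strand).
Cxcl1: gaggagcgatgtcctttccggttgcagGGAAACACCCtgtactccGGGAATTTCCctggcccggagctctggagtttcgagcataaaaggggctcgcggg
Cxcl2: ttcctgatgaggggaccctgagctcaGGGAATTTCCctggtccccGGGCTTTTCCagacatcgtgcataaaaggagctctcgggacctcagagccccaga
Cxcl3: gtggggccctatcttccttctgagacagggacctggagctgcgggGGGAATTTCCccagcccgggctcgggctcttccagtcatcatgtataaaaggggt
Cxcl10: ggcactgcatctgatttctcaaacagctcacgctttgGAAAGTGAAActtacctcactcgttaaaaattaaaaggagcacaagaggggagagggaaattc

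The NF-kB type motif was present in Cxcl1, Cxcl2 and Cxcl3, with 2 matches each in Cxcl1 (1 of them on the minus strand) and Cxcl2 and 1 in Cxcl3, and in 535 of all 32851 windows (1.63%). The interferon response type motif was present in Cxcl10 and Cxcl14, and in 1131 of all windows (3.44%). Neither set of letters was found in the windows of Cxcl9, Cxcl12 and Cxcl13. Only these letters were searched, so other forms of either motif would be missed, in Cxcl10 as in the other windows. Most of these genes lie together on chromosome 5, with Cxcl5, Cxcl3, Cxcl1 and Cxcl2 between 90759298 and 90905938, Cxcl9 and Cxcl10 between 92321331 and 92348889, and Cxcl13 at 95956939 to 95961068. Cxcl12 lies on chromosome 6, Cxcl14 on chromosome 13 and Cxcl16 on chromosome 11. Cxcl1, Cxcl2 and Cxcl3 are close paralogs, and cross-hybridization between their probes was not tested.

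**Figure D1:**
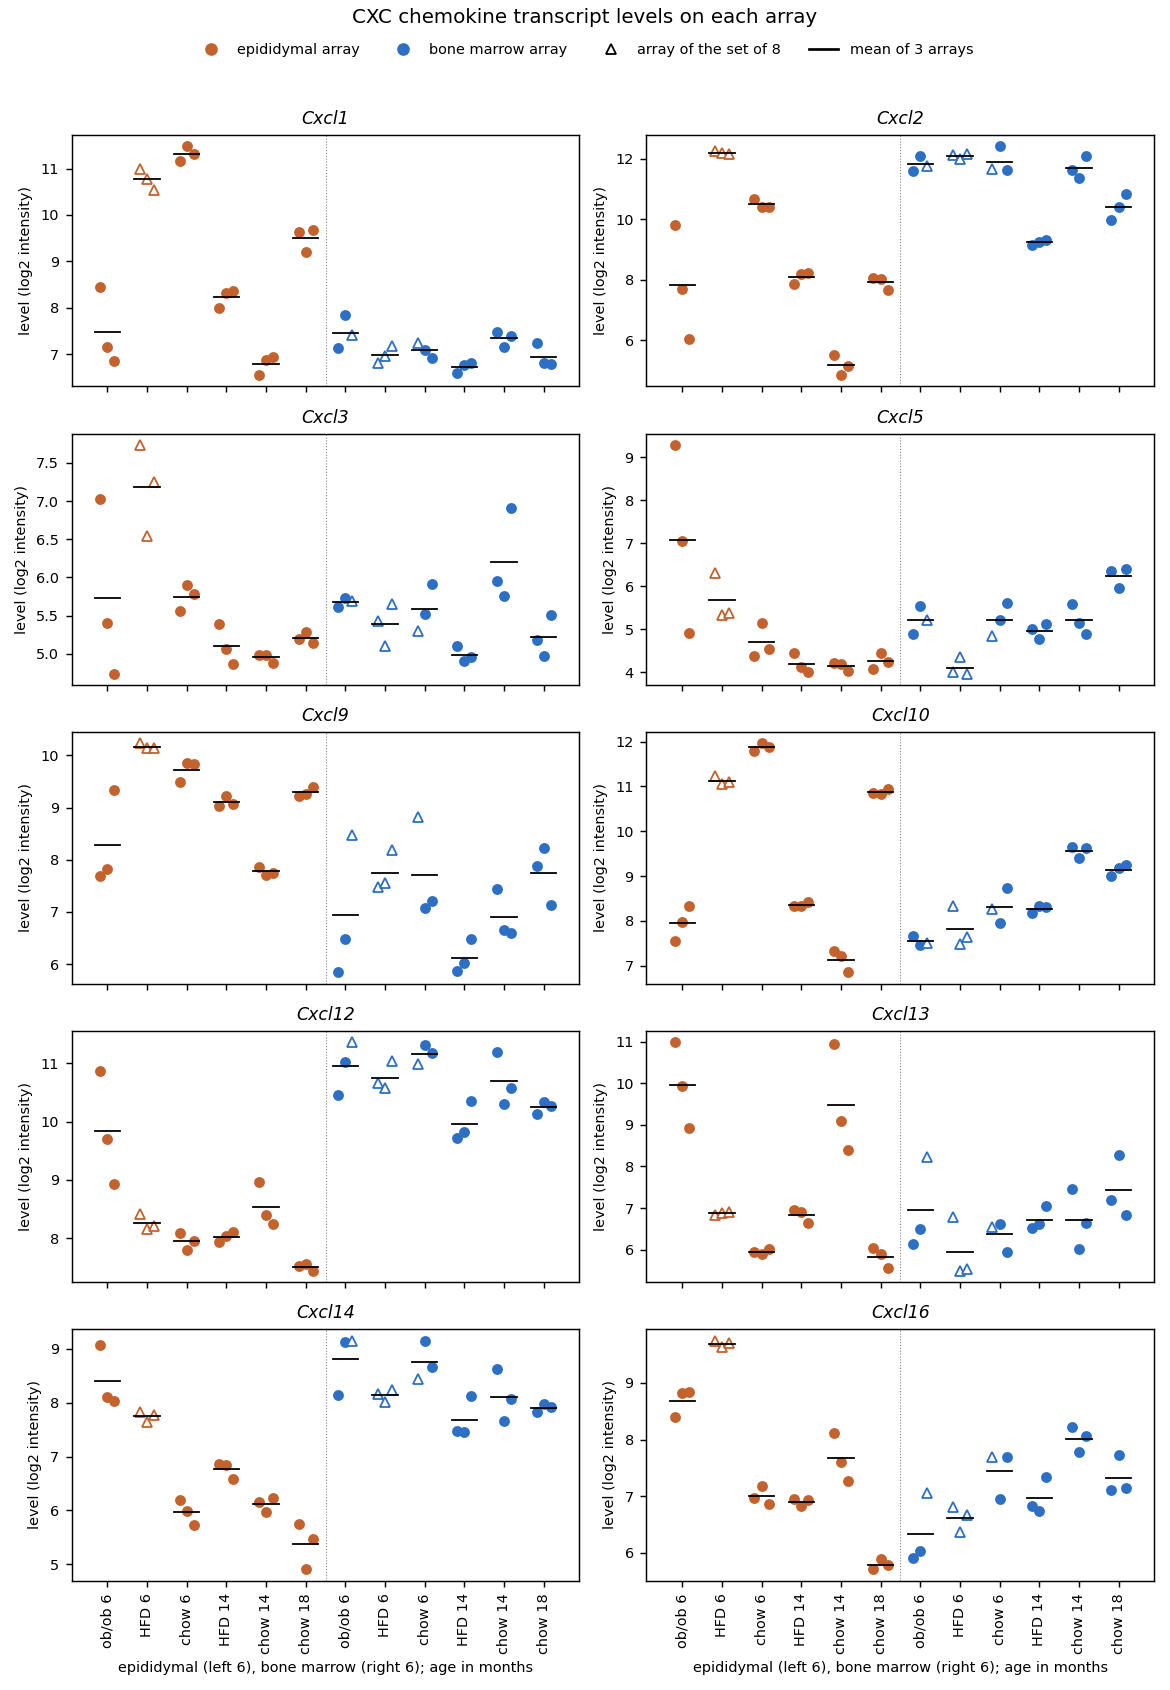
Normalized log2 intensity (y axis) of the 10 CXC chemokines on each of the 36 arrays (points), by group (x axis), with epididymal groups in orange, marrow groups in blue, a line at the mean of 3 arrays and open triangles for the 8 arrays that stood apart. Cxcl1 and Cxcl10 were above 10 only in epididymal preparations, and Cxcl12 was highest in marrow.

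Both HFD and leptin deficiency changed chemokine levels in epididymal preparations, with Cxcl2 called in each of these comparisons with chow. In epididymal preparations HFD changed 4 of 10 members at 6 months, where 14.6% of all probe sets were called, and 4 of 10 at 14 months, where 3.57% were called. In ob/ob mice 9 of 10 members changed relative to 6-month chow mice (9.77% of all probe sets) and 9 of 10 relative to 6-month HFD mice (10.1%). With the set term 6 of 10 were called relative to HFD (5.17% of all probe sets). In marrow, HFD changed none of the members at 6 months by limma (1.34% of all probe sets; 3 members had an unadjusted p under 0.05) and 3 of 10 at 14 months (0.743%). In ob/ob marrow 1 of 10 changed relative to chow (0.15%), and none relative to HFD (1.09%; 1 at an unadjusted p under 0.05). Because a fall in the number of cells of a type and a fall in the RNA per cell cannot be told apart in such preparations, all differences are those of whole pools.

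**Figure D2:**
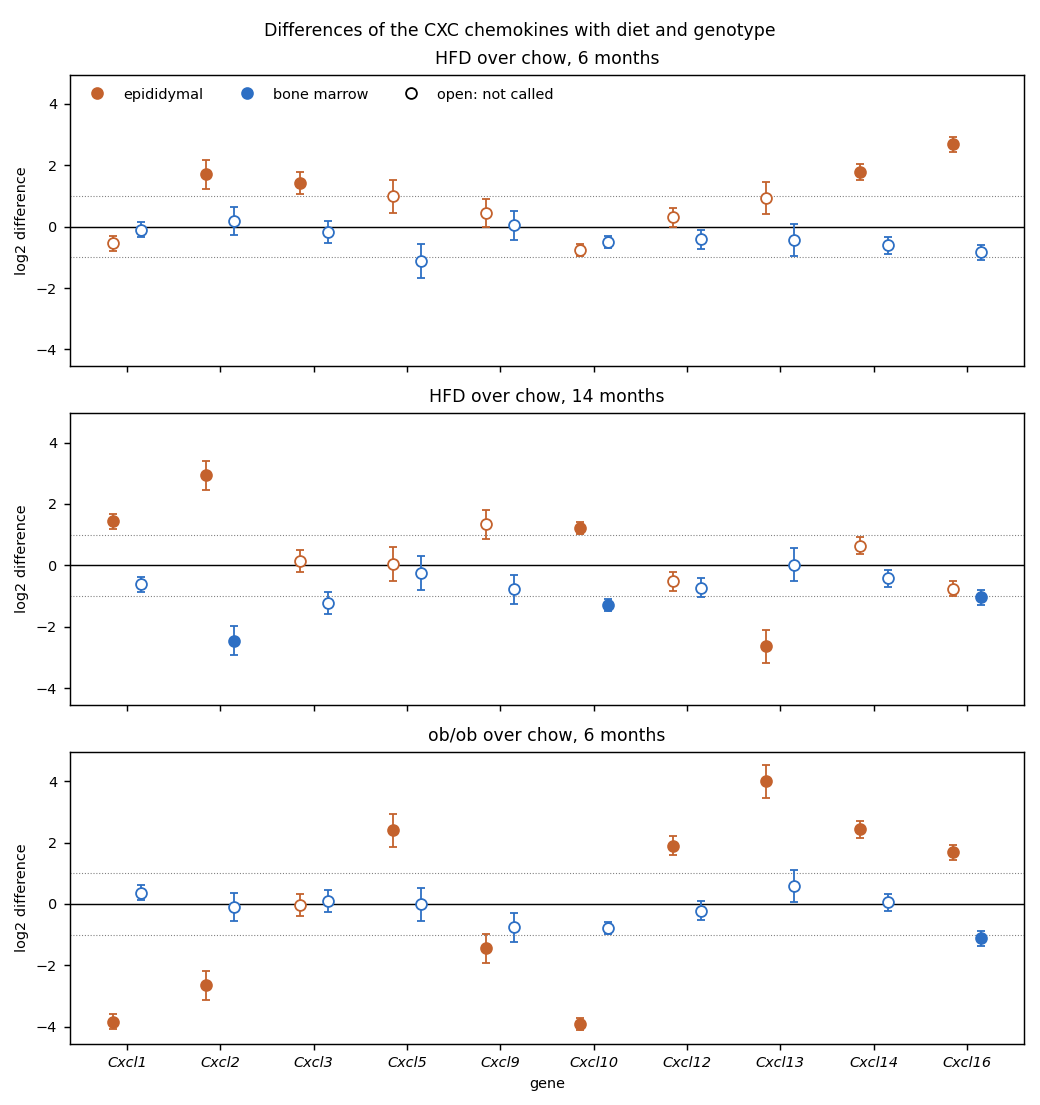
Difference in log2 intensity (y axis, with its standard error) of each chemokine (x axis) for HFD over chow at 6 months, HFD over chow at 14 months and ob/ob over chow, in epididymal and marrow preparations. Filled points passed the adjusted p and the 2-fold minimum, open points did not, and dotted lines mark a 2-fold change. Cxcl1 and Cxcl10 lay far below the line of no change in epididymal ob/ob and above it in epididymal HFD at 14 months.

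Among the neutrophil attractants, Cxcl2 had the widest range. In epididymal preparations of 6-month mice Cxcl2 was 12.27, 12.19 and 12.15 with HFD, against 10.69, 10.40 and 10.41 with chow. The arrays did not overlap, and the difference was 1.70 ± 0.46 (log2 ± SE, 3.26-fold, limma adjusted p = 0.00426). With the term for the set of 8 arrays the difference was 1.92 (adjusted p = 0.0415). At 14 months Cxcl2 was 7.88, 8.19 and 8.24 with HFD, against 5.53, 4.86 and 5.14 with chow. Both groups lay well below those of 6-month mice and again did not overlap (2.93 ± 0.46, adjusted p = 5.42e-05). In ob/ob mice Cxcl2 was 9.80, 7.71 and 6.03, all below chow at the same age (-2.65 ± 0.46, adjusted p = 5.86e-05) and below HFD (-4.36 ± 0.46, adjusted p = 7.83e-08). The 3 ob/ob pools were far apart (SD 1.89), and without array 3 the difference from chow was -1.75 (adjusted p = 0.000334).

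Marrow Cxcl2 stood between 11.4 and 12.4 in 4 of the 6 groups and moved against the epididymal direction with HFD at 14 months. It was 9.17, 9.24 and 9.34 with HFD, against 11.65, 11.39 and 12.09 with chow, with no overlap (-2.46 ± 0.46, 5.49-fold lower, adjusted p = 0.00268). At 6 months marrow Cxcl2 was 12.14, 12.00 and 12.16 with HFD, against 11.67, 12.42 and 11.65 with chow, and the arrays overlapped (adjusted p = 0.885). The response of Cxcl2 to HFD at 14 months therefore differed by 5.38 between epididymal and marrow preparations (interaction adjusted p = 3.72e-06), and 4.02% of all probe sets were called in that test. In marrow the response also differed between 14 and 6 months (-2.65, adjusted p = 0.0181, with 2.82% of all probe sets called), although not past the threshold without array 3 of the 6-month chow group (-2.52, adjusted p = 0.0625) or array 3 of the 14-month chow group (-2.46, adjusted p = 0.0546).

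Cxcl1, a ligand of the same receptor, was low in marrow, where it lay between 6.60 and 7.84 in all 18 arrays. No HFD, ob/ob or age comparison in marrow called it. In epididymal preparations Cxcl1 was 7.997, 8.32 and 8.35 with HFD at 14 months, against 6.55, 6.88 and 6.93 with chow. The arrays did not overlap (1.44 ± 0.25, 2.71-fold, adjusted p = 0.00015). At 6 months Cxcl1 was 10.99, 10.77 and 10.54 with HFD, against 11.16, 11.48 and 11.30 with chow, a difference of -0.55 that did not pass the test (adjusted p = 0.0822). The response to HFD was higher at 14 than at 6 months by 1.98 (adjusted p = 7.42e-05, with 16.9% of all probe sets called). In ob/ob mice Cxcl1 was 8.44, 7.15 and 6.86, far below all chow and HFD arrays of the same age, and the difference from chow was -3.83 ± 0.25 (14.2-fold lower, adjusted p = 3.59e-12).

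Cxcl3 and Cxcl5 had means over all arrays of 5.58 and 5.08, below the median of all values (5.81). Cxcl3 was 7.73, 6.54 and 7.25 in epididymal preparations of 6-month HFD mice, against 5.56, 5.90 and 5.78 with chow, without overlap (1.43 ± 0.36, 2.70-fold, adjusted p = 0.00204, and 1.63 with the term for the set). Cxcl3 in ob/ob mice was 7.03, 5.41 and 4.74, which spanned the chow arrays (adjusted p = 0.974). Cxcl3 averaged 5.10 with HFD and 4.95 with chow at 14 months, where no difference was called (adjusted p = 0.863). In marrow at 14 months Cxcl3 was 5.10, 4.90 and 4.96 with HFD, against 5.96, 5.75 and 6.91 with chow, which passed the test only with the set term (-1.22, adjusted p = 0.0468, against 0.0641 without it). Cxcl5 was 9.29, 7.05 and 4.92 in ob/ob preparations, against 4.38, 5.15 and 4.54 with 6-month chow. The third ob/ob pool lay among the chow arrays, so the groups overlapped although the difference was called (2.40 ± 0.55, 5.26-fold, adjusted p = 0.00117), and without the first ob/ob pool it was 1.29 (adjusted p = 0.0118). With HFD at 6 months Cxcl5 was 6.32, 5.33 and 5.38, above all chow arrays, and the difference of 0.99 did not pass the test (adjusted p = 0.156).

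The ob/ob pools with more Cxcl5 also held more of Cxcr2, the neutrophil receptor for these ligands, which was 9.04, 6.38 and 4.51 in the 3 epididymal ob/ob arrays and 7.11, 4.72 and 4.11 in those of 6-month chow mice. The mean of the 8 neutrophil markers had the same order, at 8.03, 6.42 and 5.87 in the ob/ob arrays and at 9.39, 5.55 and 5.47 in the chow arrays. The part of neutrophil content in the values of Cxcl2, Cxcl3 and Cxcl5 was not tested. Among the chow arrays, array 1, with the highest neutrophil markers, was the lowest of its group for Cxcl1, Cxcl3 and Cxcl5 and the highest for Cxcl2.

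Of the interferon-induced chemokines, Cxcl10 separated the epididymal groups most clearly. It was 11.24, 11.05 and 11.09 with HFD at 6 months, against 11.78, 11.96 and 11.89 with chow. The HFD arrays were all lower, by 0.75 ± 0.20 (adjusted p = 0.00283), which is less than 2-fold and therefore not counted as called, and with the set term the difference was -0.69 (adjusted p = 0.0851). At 14 months the order was turned round, with 8.33, 8.33 and 8.41 under HFD, against 7.33, 7.21 and 6.86 under chow (1.23 ± 0.20, 2.34-fold, adjusted p = 5.55e-05). The responses at 14 and 6 months differed by 1.98 (interaction adjusted p = 3.23e-06). In ob/ob mice Cxcl10 was 7.56, 7.98 and 8.33, the farthest of all members below 6-month chow in this comparison (-3.92 ± 0.20, 15.1-fold lower, adjusted p = 3.41e-14), and 8.99-fold below HFD (adjusted p = 5.03e-12).

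In marrow Cxcl10 fell with HFD at 14 months, being 8.18, 8.33 and 8.31, against 9.65, 9.41 and 9.62 with chow, with no overlap (-1.29 ± 0.20, adjusted p = 0.000249). The response therefore had opposite signs in the 2 depots, and their difference of 2.52 passed the test (adjusted p = 7.57e-07). In ob/ob marrow Cxcl10 was 7.65, 7.47 and 7.51, against 8.27, 7.95 and 8.73 with chow, and the difference of -0.77 did not pass the test (adjusted p = 0.0968).

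Cxcl9, the other Cxcr3 ligand among the members, was 10.23, 10.14 and 10.13 in epididymal preparations with HFD at 6 months. With chow it was 9.48, 9.86 and 9.84, and the difference did not pass the test (0.44, adjusted p = 0.481). With the set term the sign turned and the difference was called (-1.55, adjusted p = 0.00816). At 14 months Cxcl9 was 9.03, 9.21 and 9.08 with HFD, against 7.87, 7.71 and 7.75 with chow. This difference, although without overlap, missed the threshold (1.33 ± 0.47, adjusted p = 0.0604) and passed it with the set term (adjusted p = 0.00162). Neither group holds an array of the set, so the difference stayed at 1.33 and only its SE fell (0.29). The difference between the responses of Cxcl9 to HFD at 14 and 6 months was 0.89 (adjusted p = 0.335), and 2.88 with the set term (adjusted p = 0.000158). Cxcl9 in ob/ob mice was 7.69, 7.82 and 9.33, below 6-month chow (-1.45 ± 0.47, adjusted p = 0.0194), a call that was lost without array 1 or 2 of ob/ob (-1.15 and -1.21) or array 2 or 3 of chow (-1.38 and -1.39). The fall below HFD (-1.89 ± 0.47, adjusted p = 0.00244) was 0.11 with the set term (adjusted p = 0.926). Marrow Cxcl9 was spread widely within groups, at 5.85, 6.49 and 8.47 in ob/ob and 8.82, 7.08 and 7.20 in 6-month chow, and the highest array of each of these groups was of the set of 8.

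The homeostatic chemokines Cxcl12, Cxcl13 and Cxcl14 were raised together in epididymal preparations of ob/ob mice. Cxcl13, the B cell attractant, was 10.99, 9.92 and 8.93 in ob/ob, against 5.95, 5.89 and 6.02 in 6-month chow (3.996 ± 0.53, 15.95-fold, adjusted p = 9.48e-07). Every ob/ob array was at least as high as 8.93, well clear of chow. With HFD Cxcl13 was 6.84, 6.89 and 6.90 at 6 months, above all chow arrays without passing the test (0.92, adjusted p = 0.17). At 14 months it was 6.95, 6.91 and 6.65 with HFD, against 10.95, 9.09 and 8.39 with chow. Here the chow arrays were high and widely spread (SD 1.32), with no overlap (-2.64 ± 0.53, adjusted p = 0.000811), and without chow array 1 the difference was -1.91 and still called. The responses to HFD at 14 and 6 months differed by -3.57 (adjusted p = 0.000516).

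Cxcl14, which attracts monocytes and dendritic cells, was 9.08, 8.10 and 8.04 in epididymal ob/ob preparations, against 6.20, 5.99 and 5.73 in 6-month chow (2.43 ± 0.27, 5.40-fold, adjusted p = 4.77e-08). With HFD at 6 months it was 7.84, 7.65 and 7.77, above all chow arrays (1.78 ± 0.27, 3.43-fold, adjusted p = 5.01e-06) and called with the set term as well (1.75, adjusted p = 0.00146). At 14 months Cxcl14 was 6.86, 6.84 and 6.59 with HFD, against 6.16, 5.98 and 6.24 with chow, a smaller difference that did not pass the test (0.64, adjusted p = 0.131). The difference between the responses at 14 and 6 months passed the test (-1.14, adjusted p = 0.023), but not with the set term (-1.11, adjusted p = 0.103). Marrow Cxcl14 was 7.46 to 9.15 over all 18 arrays and was called in no diet or ob/ob comparison.

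Cxcl12, the marrow niche chemokine, was 10.88, 9.70 and 8.93 in epididymal ob/ob preparations, against 8.09, 7.79 and 7.96 in 6-month chow (1.89 ± 0.31, 3.71-fold, adjusted p = 2.43e-05). It was also higher than in HFD preparations, where it was 8.41, 8.16 and 8.20 (1.58 ± 0.31, adjusted p = 0.000255). HFD itself moved Cxcl12 by 0.31 at 6 months (adjusted p = 0.453) and -0.51 at 14 months (adjusted p = 0.342) in epididymal preparations. In marrow Cxcl12 was 9.72 to 11.4 in all 18 arrays, and none of the diet, ob/ob and age comparisons called it by limma, the nearest being 18 over 6 months (-0.92, adjusted p = 0.0501). Array 1 of the epididymal ob/ob group was the highest of its group for Cxcl1, Cxcl2, Cxcl3, Cxcl5, Cxcl12, Cxcl13 and Cxcl14, as well as for the neutrophil markers.

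Cxcl16, a transmembrane chemokine that also binds oxidized lipoproteins, showed the largest HFD response of the members at 6 months. In epididymal preparations it was 9.75, 9.62 and 9.70 with HFD, against 6.97, 7.18 and 6.86 with chow (2.69 ± 0.25, 6.44-fold, adjusted p = 1.35e-09). The groups were far apart, and the term for the set brought the difference to 1.96 (adjusted p = 1.93e-05). Cxcl16 in ob/ob mice was 8.39, 8.83 and 8.84, above chow (3.215-fold, adjusted p = 4.65e-06) and below HFD by 1.00 (adjusted p = 0.00228). That step was just under 2-fold without array 1 of ob/ob (-0.86) or array 1 or 3 of HFD (-0.97 and -0.998), and with the set term ob/ob and HFD differed by only -0.27 (adjusted p = 0.672). At 14 months the sign was turned, and Cxcl16 was 6.96, 6.82 and 6.94 with HFD, against 8.12, 7.61 and 7.27 with chow (-0.76 ± 0.25, adjusted p = 0.0397), which is under 2-fold. The responses at 14 and 6 months differed by -3.45 (adjusted p = 2e-08).

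In marrow Cxcl16 was lower with HFD at both ages. It was 6.81, 6.37 and 6.67 with HFD at 6 months, against 7.69, 6.95 and 7.70 with chow (-0.83 ± 0.25, adjusted p = 0.0487, under 2-fold), and -1.32 was the difference with the set term in the model (adjusted p = 0.00465). At 14 months it was 6.83, 6.75 and 7.35 with HFD, against 8.22, 7.77 and 8.06 with chow (-1.04 ± 0.25, 2.06-fold lower, adjusted p = 0.0172). Neither pair of groups overlapped, but the call at 14 months was lost when array 1 or 2 of HFD (-0.97 and -0.93) or array 1 or 3 of chow (-0.94 and -1.02) was left out. In ob/ob marrow Cxcl16 was 5.92, 6.03 and 7.06, overlapping with chow (-1.11 ± 0.25, adjusted p = 0.047), and this call was lost without array 1 or 2 of ob/ob (-0.91 and -0.96) or array 1 or 3 of chow (-0.99 for either). At 6 months the epididymal and marrow responses of Cxcl16 differed by 3.52 for HFD (interaction adjusted p = 2.68e-08, with 10.7% of all probe sets called) and by 2.80 for ob/ob (adjusted p = 9.08e-07, with 10.8% called).

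The comparisons of HFD and of ob/ob with chow at 6 months use the same 3 chow arrays, so the values of the members are given side by side only. Cxcl14 and Cxcl16 were called higher in both. Cxcl2 was higher with HFD (1.70) and lower in ob/ob (-2.65), and the direct comparison of ob/ob with HFD called 9 members, with Cxcl5, Cxcl12 and Cxcl13 higher in ob/ob and Cxcl1, Cxcl2, Cxcl3, Cxcl9, Cxcl10 and Cxcl16 lower. The calls of Cxcl5, Cxcl9 and Cxcl16 ended with the set term, which left 6. Cxcl5 lay at the threshold (1.41, adjusted p = 0.0494) and was lost with that term (1.13, adjusted p = 0.442), as it was without array 1 of ob/ob (0.31, adjusted p = 0.631), array 2 of ob/ob (1.43) or array 2 or 3 of HFD (1.24 and 1.26), whereas without array 3 of ob/ob it was 2.49. Cxcl3 was -1.45 (adjusted p = 0.00238) in that comparison, with overlapping arrays, and -0.96 without array 3 of ob/ob (adjusted p = 0.0365).

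The epididymal chemokines of chow mice differed between ages in both directions, and several were lowest or highest at 14 months. Each age was a single group of 3 pools, so age cannot be told apart from anything else that differed between these groups. At 14 months 5 of 10 members were called relative to 6 months (4.53% of all probe sets), 7 of 10 at 18 relative to 14 months (6.18%) and 3 of 10 at 18 relative to 6 months (2.36%). Cxcl1, Cxcl2 and Cxcl10 were high at 6 months, low at 14 and between these levels at 18 months. Epididymal Cxcl10 was 11.78, 11.96 and 11.89 at 6 months, 7.33, 7.21 and 6.86 at 14 months, and 10.86, 10.84 and 10.95 at 18 months. The ages did not overlap, and Cxcl10 fell at 14 relative to 6 months by 4.74 ± 0.20 (26.8-fold, adjusted p = 8.2e-16) and was higher at 18 than at 14 months by 3.75 ± 0.18 (adjusted p = 4.61e-16). Cxcl1 was 11.16, 11.48 and 11.30 at 6 months, 6.55, 6.88 and 6.93 at 14 months, and 9.64, 9.21 and 9.69 at 18 months, so that it fell by 4.53 ± 0.25 at 14 relative to 6 months (adjusted p = 4.01e-13). Cxcl2 was 10.69, 10.40 and 10.41 at 6 months, 5.53, 4.86 and 5.14 at 14 months, and 8.07, 8.02 and 7.68 at 18 months, with a difference of -5.32 ± 0.46 between 14 and 6 months (40.1-fold lower, adjusted p = 2.44e-09).

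Cxcl9 had the same order of ages with smaller steps, at 9.48, 9.86 and 9.84 at 6 months, 7.87, 7.71 and 7.75 at 14 months, and 9.22, 9.26 and 9.40 at 18 months. It was lower at 14 than at 6 months (-1.95 ± 0.47, adjusted p = 0.00401) and higher at 18 than at 14 months (2.86-fold, adjusted p = 0.0125). Cxcl13 ran the other way, at 5.95, 5.89 and 6.02 at 6 months, 10.95, 9.09 and 8.39 at 14 months, and 6.05, 5.89 and 5.57 at 18 months. Only the 14-month arrays were high, with differences of 3.53 ± 0.53 between 14 and 6 months (adjusted p = 1.69e-05) and -3.64 ± 0.52 between 18 and 14 months (adjusted p = 1.96e-06). Cxcl16 was 6.97, 7.18 and 6.86 at 6 months, 8.12, 7.61 and 7.27 at 14 months, and 5.71, 5.89 and 5.78 at 18 months, and was called lower at 18 than at 14 months (-1.87 ± 0.24, adjusted p = 3.52e-07) and than at 6 months (-1.21 ± 0.24, adjusted p = 0.000654). Cxcl12 was lower at 18 than at 14 months (-1.03 ± 0.29, adjusted p = 0.0079), although not past the threshold without array 1 of the 14-month group (-0.82, adjusted p = 0.0714).

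**Figure D3:**
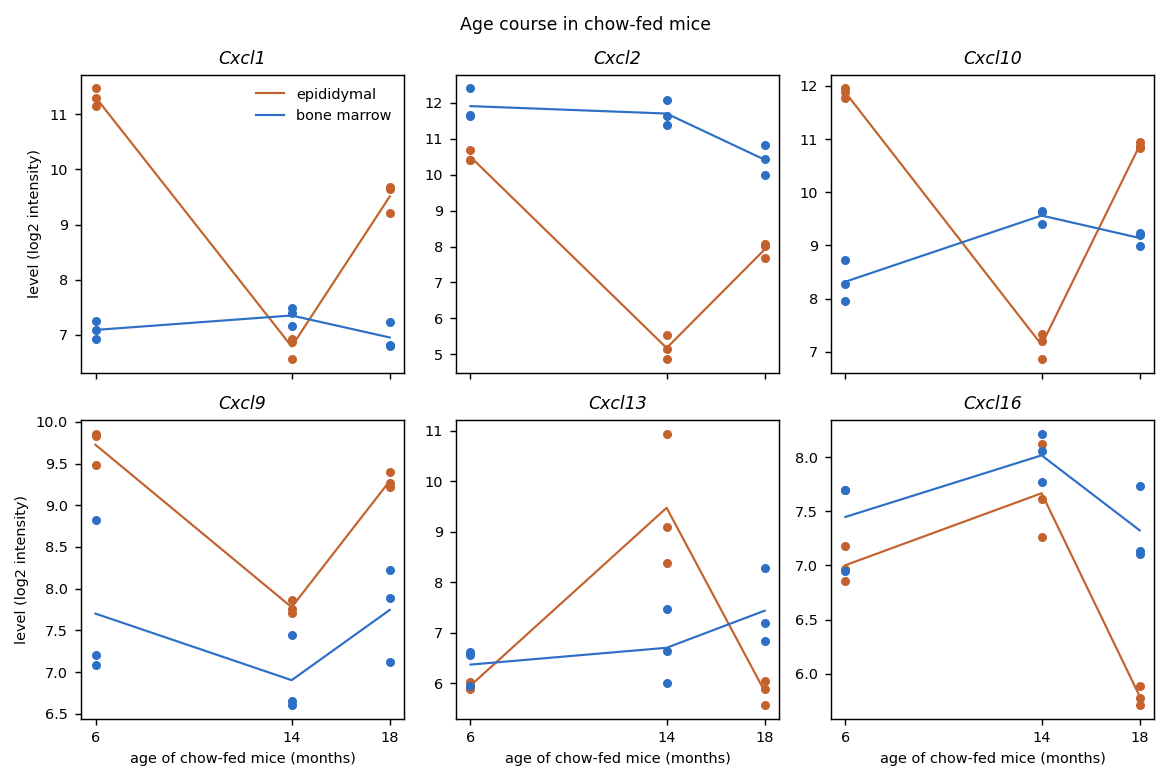
Normalized log2 intensity (y axis) of Cxcl1, Cxcl2, Cxcl10, Cxcl9, Cxcl13 and Cxcl16 in chow mice at 6, 14 and 18 months (x axis), with epididymal arrays in orange, marrow arrays in blue, points for arrays and lines through the means of 3 arrays. In epididymal preparations Cxcl1, Cxcl2, Cxcl10 and Cxcl9 were lowest at 14 months, when Cxcl13 was highest.

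The 14-month chow arrays enter both the diet comparison at 14 months and the age comparisons, so these share their reference and are not independent of each other. In HFD mice the 14-month arrays can be set against the 6-month HFD arrays instead, where 6 of 10 members were called in epididymal preparations (11.3% of all probe sets), all lower at 14 months. The difference was -4.10 ± 0.46 for Cxcl2 (adjusted p = 1.13e-07), -2.77 ± 0.20 for Cxcl10 (adjusted p = 3.43e-11) and -2.54 ± 0.25 for Cxcl1 (adjusted p = 9.67e-09). Cxcl16 (-2.78, adjusted p = 1.94e-09) and Cxcl3 (-2.07, adjusted p = 4.5e-05) were lower as well, and Cxcl5 was the nearest to the threshold among those called (-1.49, adjusted p = 0.0369). Its call was lost without array 1 or 3 of the 6-month group (-1.17 and -1.63) or any array of the 14-month group (-1.61, -1.46 and -1.39 without arrays 1, 2 and 3), as well as with the set term (-1.77, adjusted p = 0.139). The 6-month HFD arrays are all of the set of 8, and with the set term Cxcl16 was -2.06 (adjusted p = 2.35e-05).

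Few marrow chemokines were called with age. In chow mice 1 of 10 members was called at 14 relative to 6 months (1.18% of all probe sets), none by limma at 18 relative to 14 months (1.81%; 4 members had an unadjusted p under 0.05) and 1 at 18 relative to 6 months (0.991%). Marrow Cxcl10 was 8.27, 7.95 and 8.73 at 6 months, 9.65, 9.41 and 9.62 at 14 months, and 8.99, 9.19 and 9.24 at 18 months, the reverse of the epididymal order. It was higher at 14 than at 6 months (1.24 ± 0.20, adjusted p = 0.000208), with no overlap. Marrow Cxcl2 was 9.99, 10.43 and 10.84 at 18 months, below all 6-month arrays (-1.49 ± 0.44, adjusted p = 0.0371), a call that was lost without array 1 or 2 of the 18-month group (-1.28 and -1.50) or array 1 or 2 of the 6-month group (-1.61 and -1.24). In HFD marrow 2 of 10 members were called at 14 relative to 6 months (5.47% of all probe sets): Cxcl2 was lower (-2.85 ± 0.46, adjusted p = 9.86e-05, and -3.07 with the term for the set), and so was Cxcl9 (-1.62 ± 0.47, adjusted p = 0.0132), but with the set term Cxcl9 was 0.37 (adjusted p = 0.761), and its call was lost without array 1 of the 14-month (-1.49) or array 3 of the 6-month group (-1.39). Marrow Cxcl16 in HFD mice was called at 14 relative to 6 months only with the set term (1.09, adjusted p = 0.0403), and its difference without that term was 0.36 (adjusted p = 0.338). The set term also brought marrow Cxcl2 at 18 relative to 14 months past the threshold (-1.29, adjusted p = 0.0454, against 0.0569 without it).

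Between depots, 4 to 9 of the 10 members were called in each kind of mouse, against a background of 23% of all probe sets in 6-month chow, 19.3% in 6-month HFD, 18.3% in ob/ob, 21.2% in 14-month chow, 22.9% in 14-month HFD and 23.7% in 18-month chow mice. Cxcl12 was lower in epididymal than in marrow preparations in all 6 kinds of mice, with a difference of -3.21 ± 0.31 in 6-month chow mice and of -1.11 ± 0.31 in ob/ob mice, where the arrays overlapped. Without array 3 of the epididymal ob/ob group that difference was -0.66 (adjusted p = 0.075), and without array 3 of the marrow group it was -0.90 and under 2-fold. Cxcl9 was higher in epididymal preparations in 5 of the 6 and had a difference of 0.88 in 14-month chow mice that was not called (adjusted p = 0.139). In ob/ob mice the call of Cxcl9 was lost without epididymal array 3 (0.82) or marrow array 1 or 2 (0.80 and 1.12), and without marrow array 3 the difference was 2.11.

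The depot difference of the other members depended on the mice compared. Cxcl1 was 18.7-fold higher in epididymal than in marrow preparations of 6-month chow mice (4.23 ± 0.25, adjusted p = 4.26e-14) and was not called in ob/ob mice (0.02, adjusted p = 0.951). Cxcl10 was higher in epididymal preparations of 6-month chow mice (3.56 ± 0.20) and lower in those of 14-month chow mice (-2.43 ± 0.20, adjusted p = 2.98e-11). Cxcl2 was lower in epididymal preparations in 5 of the 6, most of all at 14 months on chow (-6.53 ± 0.46, 92.5-fold, adjusted p = 2.73e-12), and did not differ past the threshold in 6-month HFD mice (0.10, adjusted p = 0.91). Its call in 14-month HFD mice (-1.15, adjusted p = 0.0455) was lost whichever array was left out (-1.22 to -1.04), and that in 6-month chow mice (-1.41, adjusted p = 0.0136) without marrow array 2 (-1.16). Cxcl14 was called lower in epididymal preparations in the chow mice alone (-2.78 at 6, -1.99 at 14 and -2.53 at 18 months), and Cxcl16 was higher there in 6-month HFD (3.08) and ob/ob mice (2.35) and lower in 18-month chow mice (-1.53). Cxcl13 was higher in epididymal preparations of ob/ob (2.995, adjusted p = 3.13e-05) and 14-month chow mice (2.78, adjusted p = 7.05e-05), whereas at 18 months it was lower (-1.60, adjusted p = 0.0102, and -1.18 without marrow array 2, adjusted p = 0.0926).

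Cytokines that induce the neutrophil attractants moved in several of the same comparisons, counted here by the adjusted p alone, whatever the fold. Of 12 upstream cytokines and receptors measured, 5 were higher and 5 lower in epididymal preparations with HFD at 6 months, where 39.2% of all probe sets passed this test and the median difference was -0.25 over the list and -0.11 over all probe sets. Tnf was 11.39, 11.07 and 10.93 with HFD, against 7.65, 7.63 and 7.18 with chow (3.64 ± 0.19, adjusted p = 7.89e-14), and Il1b was 3.20 higher (adjusted p = 4.84e-07). Both encode inflammatory cytokines and were among the 5 higher genes of the list, with 5 others lower. Cxcl2 and Cxcl3 were also higher in this comparison, whereas Cxcl1 was lower without passing the limma test (-0.55, adjusted p = 0.0822). The part of these cytokines in the chemokine values was not tested. In epididymal preparations Il6 was 1.29 higher with HFD at 6 months (adjusted p = 0.00529) and lower in ob/ob relative to chow (-3.23, adjusted p = 6.14e-08). It was lower at 14 relative to 6 months on chow (-4.32, adjusted p = 1.13e-09) and higher at 18 relative to 14 months (1.96, adjusted p = 0.000124). Cxcl2 had the same directions in these 4 epididymal comparisons. For marrow the study listed Il6 as lower with HFD at 6 months, where Cxcl2 was not called (0.19, limma adjusted p = 0.885). The study also listed marrow Il6 as higher at 14 than at 6 months on HFD, where Cxcl2 was lower. In marrow at 14 months Tnf and Il1a were lower with HFD, as were 1.86% of all probe sets (2.96% passed the test in either direction).

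Of 10 measured regulators of transcription and mRNA decay around NF-kB and interferon signalling, 9 were lower in epididymal preparations at 14 relative to 6 months on chow. In this comparison 6.14% of all probe sets were lower (15% passed the test in either direction). The median difference was -1.66 over the list and -0.04 over all probe sets. The mean level of the list was 8.16 to 8.28 at 14 months and 9.82 to 9.99 at 6 months. Irf1, a transcription factor induced by interferon, was -2.70 (adjusted p = 2.73e-13), Nfkbia, the inhibitor that NF-kB itself induces, was -2.10 (adjusted p = 5.16e-12), and Tnfaip3, another NF-kB feedback gene, was -2.98 (adjusted p = 2.92e-13). In ob/ob 7 of the 10 were lower than in 6-month chow mice, as were 15% of all probe sets (29.7% passed the test in either direction). Irf1 was at -2.45 (adjusted p = 6.2e-13) and Nfkbia at -1.89 (adjusted p = 1.29e-11), and Irf8 was higher. With HFD at 14 months 5 were higher than with chow, as were 6% of all probe sets (13.1% passed in either direction). At 18 relative to 14 months 5 were higher, as were 10.3% of all probe sets (22.6% in either direction). Irf1 was among these 5 regulators (1.54, adjusted p = 6.05e-08). With HFD at 6 months 4 were higher and 3 lower, with Nfkbia higher (0.84) and Irf1 lower (-0.83, adjusted p = 3.7e-05), as Cxcl10 was. In marrow at 14 months 4 of the 10 were lower with HFD (Nfkbia, Nfkbiz, Tnfaip3 and Irf1), as were 1.86% of all probe sets. Tnfaip3 was at -1.23 (adjusted p = 3.56e-05). Of 6 further interferon-induced genes measured, Ifit1, Rsad2 and Oas1a were higher in epididymal preparations with HFD at 6 months, when 19.2% of all probe sets were. The epididymal mean of these 6 genes on chow was 6.95 at 6 months, 7.24 at 14 months and 7.25 at 18 months. This mean was thus not lower at 14 months, where Cxcl10 was lowest. In ob/ob the mean of the 6 genes was 6.76. At 14 months, when Cxcl10 was higher with HFD, the differences of Ifit1, Ifit3, Irf7, Stat2, Rsad2 and Oas1a lay between -0.46 (Rsad2) and -0.31 (Oas1a), with the smallest adjusted p for Stat2 (0.0563).

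All 8 receptors and scavenging receptors were measured, and those named here are a part of them. By the adjusted p alone, 19.2% of all probe sets were higher in epididymal preparations with HFD at 6 months and 14.8% in ob/ob. At 14 relative to 6 months on chow 8.88% were higher, and with HFD at 14 months 7.06% were lower. Cxcr3, the receptor of Cxcl9 and Cxcl10 on T cells, was higher in epididymal ob/ob than in chow preparations (1.92, adjusted p = 3.52e-09), higher at 14 than at 6 months on chow (1.70, adjusted p = 9.25e-08) and lower with HFD at 14 months (-1.57, adjusted p = 5.56e-07), in each case opposite to Cxcl10. Cxcr5, the receptor of Cxcl13, was higher at 14 than at 6 months on chow (1.06, adjusted p = 0.00257) and lower with HFD at 14 months (-1.11, adjusted p = 0.00198), as Cxcl13 was. Cxcr4, the receptor of Cxcl12, was higher with HFD at 6 months (1.51, adjusted p = 5.65e-05) and in ob/ob (1.13, adjusted p = 0.00209), and Cxcr6, the receptor of Cxcl16, was higher in ob/ob (0.60, adjusted p = 0.049). Adam10, a protease that releases Cxcl16 from the cell surface, was higher with HFD at 6 months (0.49, adjusted p = 0.0232) and in ob/ob (0.76, adjusted p = 0.00107). Among the other CXC ligands measured, Pf4 (Cxcl4, a platelet chemokine) was the only one to pass the test in the epididymal comparisons of diet, genotype and age, for instance with 2.08 in ob/ob over chow (adjusted p = 9.15e-06).

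Markers of other cell types moved with several chemokines in epididymal preparations. The mean of 8 macrophage markers was 11.04 to 11.15 with HFD at 6 months, against 7.79 to 8.08 with chow, and all 8 were higher (median difference 2.89, with 19.2% of all probe sets higher) where Cxcl16, Cxcl14 and Cxcl2 were higher. It was 10.3 to 10.97 in ob/ob, and was 7.79 to 8.08 at 6 months, 9.49 to 10.08 at 14 months and 6.41 to 6.53 at 18 months on chow, with 8 of 8 lower at 18 than at 14 months (12.3% of all probe sets were), as Cxcl16 was. With HFD at 14 months it was 9.47 to 9.55, and Cd68 was higher and Csf1r and Mrc1 lower. Cxcl16 averaged 6.91 in that group and 7.00 in 6-month chow, although the macrophage mean was lower in 6-month chow. The mean of 5 lipid-associated macrophage markers was 11.8 with HFD and 8.45 with chow at 6 months, and 11.1 in ob/ob. At 14 months it was 10.8 with HFD and 9.48 with chow, whereas Cxcl16 was lower with HFD. Cxcl2 did not follow the macrophage mean throughout. It averaged 7.85 in ob/ob and 5.18 in 14-month chow, below 10.5 in 6-month chow, although the macrophage mean was higher in both. The mean of 5 B cell markers was 6.03 to 6.78 in ob/ob and 6.33 to 7.07 in 14-month chow preparations, where Cxcl13 was high, and 5.03 to 5.33 in those of 6-month chow and 5.15 to 5.27 in those of 18-month chow mice. Of these 5 markers, Cd79a, Cd79b and Ms4a1 passed the test in these comparisons. Of all probe sets 14.8% were higher in ob/ob than in 6-month chow, and 8.88% at 14 than at 6 months on chow.

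The mean of 6 fibroblast and stromal markers was 11.5 to 11.7 in ob/ob, against 9.66 to 9.86 in 6-month chow, and 10.98 to 11.51 in 14-month chow epididymal preparations. The mean of 6 mesothelial markers was 6.39 to 6.41 with HFD at 14 months, against 8.44 to 8.86 with chow, and 6 of 6 were lower (7.06% of all probe sets were), as Cxcl13 was. In ob/ob, where Cxcl13 was also high, the mesothelial mean was 6.93 to 7.41, against 7.29 to 7.40 in 6-month chow. The part of these cell types in the chemokine values was not tested. Cxcl10 moved against these lists with age on chow, since it averaged 7.13 at 14 months and 11.88 at 6 months while the macrophage, B cell and mesothelial markers were higher at 14 months.

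**Figure D4:**
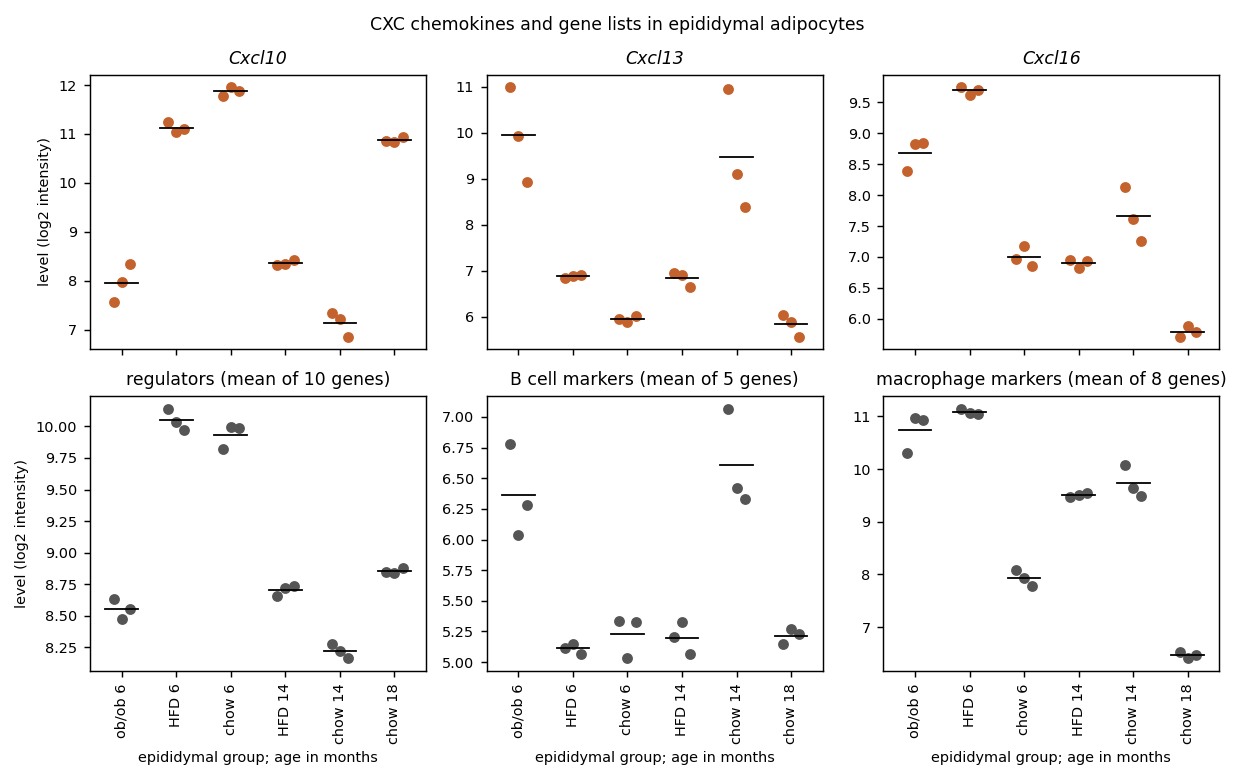
Normalized log2 intensity on each epididymal array (points), by group (x axis), of Cxcl10, Cxcl13 and Cxcl16 (upper panels) and of the means of 10 regulators, 5 B cell markers and 8 macrophage markers (lower panels). The regulators, like Cxcl10, were low at 14 months on chow and in ob/ob, where the B cell markers and Cxcl13 were high. At 18 months on chow the regulators were also low (8.85), but Cxcl10 was high (10.88).

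The genes whose levels followed each member most closely are given as a description over arrays that share groups. Over the 18 epididymal arrays Cxcl10 was most like Irf1 (Pearson r = 0.966), Cxcl1 was most like Maff (r = 0.985) with Zfp36 close behind (r = 0.973), and Cxcl2 was like Ccl2 (r = 0.965) and Il6 (r = 0.955). Cxcl13 was most like Pdgfra (r = 0.960), a stromal growth factor receptor, and like the B cell gene Ms4a1 (r = 0.952), and Cxcl14 was most like Mmp3 (r = 0.947). Cxcl16 was most like Arhgap10 (r = 0.987) and Cxcl5 most like Arg1 (r = 0.950). Over the 18 marrow arrays Cxcl2 was most like the stress-induced transcription factor gene Atf3 (r = 0.958), Cxcl12 was most like Fbln5 (r = 0.965), with Pdgfrb at r = 0.942, and Cxcl14 was most like Prelp (r = 0.9625), the last 3 being genes of matrix and stromal cells. Over all 36 arrays Cxcl2 was most like Ier3 (r = 0.929), followed by Tnfaip3 (r = 0.922) and Nfkbia (r = 0.919).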

How the data were processed

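Total RNA of 36 preparations was hybridized to 1 array each. The authors deposited log2 intensities per probe set. These were made by gcRMA with quantile normalization in Partek, while the submitters' processing notes name both GCRMA and RMA, and tool versions are not given in the sources used here. Depth does not apply to arrays, and 3 arrays per group limit the precision. Probe sets were named through the platform annotation, where 23410 of 35556 have a symbol (1621 have several) and 12146 have none. Models of group means used lmFit and eBayes (limma 3.58.1, R 4.3.3), with the 10 groups of 6 and 14 months in 1 fit of 30 arrays (20 residual and 6.36 prior degrees of freedom) and all 36 arrays for comparisons with 18 months. There were 22 comparisons of a pair of groups and 5 tests of whether effects differ (interactions), each adjusted by Benjamini-Hochberg over the named probe sets. The fit was tested on simulated data.

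Genes named were all 10 members, genes of pathway and cell type lists, counted in full, and for each member the 3 genes with the highest Pearson r among probe sets whose group means spanned at least 1 log2 unit. The members and lists were chosen with earlier results of these data known. Alternatives were other arrays in the fit, normalizations, filters and variance models, each array left out, the replicate number as a block, and a term for the set of 8 arrays. Same-numbered arrays of the 2 depots did not deviate together, with correlations from -0.157 to 0.184, of which 3 of 18 were over 0.1.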

Additional observations from a re-analysis of the deposited data

Results flagged for a closer look

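The effects listed here differed between depots or between ages by limma's interaction test, each given as a difference of log2 differences with its adjusted p. The response to HFD at 6 months was higher in epididymal than in marrow preparations for Cxcl16 (3.52, adjusted p = 2.68e-08), Cxcl14 (2.39, adjusted p = 3.37e-05) and Cxcl3 (1.62, adjusted p = 0.0237). Cxcl3 was not called without array 1 of epididymal HFD (1.34), array 2 of marrow HFD (1.48), array 1 of epididymal chow (1.53) or array 3 of marrow chow (1.45). In this test 10.7% of all probe sets were called, and all 6-month HFD arrays of both depots are of the set of 8 that stood apart.

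At 14 months the epididymal response to HFD exceeded the marrow response for Cxcl2 (5.38, adjusted p = 3.72e-06), Cxcl10 (2.52, adjusted p = 7.57e-07), Cxcl1 (2.06, adjusted p = 0.000288) and Cxcl9 (2.11, adjusted p = 0.0492), and was lower for Cxcl13 (-2.66, adjusted p = 0.0255), with 4.02% of all probe sets called. Cxcl2 and Cxcl10 were called in opposite directions in the 2 depots. The call of Cxcl9 was lost whichever of the 12 arrays was left out (1.84 to 2.29). That of Cxcl13 was lost without array 1 of epididymal chow (-1.93, adjusted p = 0.101), array 3 of epididymal HFD (-2.57), array 3 of marrow HFD (-2.51) or array 2 or 3 of marrow chow (-2.32 and -2.63).

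In epididymal preparations the response to HFD was higher at 14 than at 6 months for Cxcl1 (1.98, adjusted p = 7.42e-05) and Cxcl10 (1.98, adjusted p = 3.23e-06), and lower for Cxcl16 (-3.45, adjusted p = 2e-08), Cxcl13 (-3.57, adjusted p = 0.000516) and Cxcl14 (-1.14, adjusted p = 0.023; -1.05 and not called without array 3 of 14-month HFD, and -1.02 without array 3 of 6-month chow, and -1.11 with the set term, adjusted p = 0.103), with 16.9% of all probe sets called. Cxcl9 was called in this test only with the set term (2.88, adjusted p = 0.000158, against 0.89 without it). In marrow it was lower at 14 months for Cxcl2 (-2.65, adjusted p = 0.0181), with 2.82% called, but not without array 3 of the 14-month chow (-2.46) or of the 6-month chow group (-2.52).

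The difference of ob/ob from chow mice was higher in epididymal than in marrow preparations for Cxcl13 (3.41, adjusted p = 0.00128), Cxcl16 (2.80, adjusted p = 9.08e-07), Cxcl5 (2.41, adjusted p = 0.027), Cxcl14 (2.38, adjusted p = 3.14e-05) and Cxcl12 (2.10, adjusted p = 0.000787). It was lower for Cxcl1 (-4.20, adjusted p = 1.64e-09), Cxcl10 (-3.15, adjusted p = 3.6e-09) and Cxcl2 (-2.56, adjusted p = 0.00554), and 10.8% of all probe sets were called. Cxcl5 was not called without array 1 of epididymal ob/ob (1.30, adjusted p = 0.0737), array 1 of marrow ob/ob (2.24), array 1 or 3 of epididymal chow (2.25 and 2.33) or array 3 of marrow chow (2.21).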

How the results depend on the processing

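The counts of called members that moved by more than 1.5 times were mostly those within marrow, where few members were called. With the arrays of the compared groups alone, the number of members called was 0 for ob/ob over chow in marrow, 2 for 18 over 14 months in marrow, 0 for 18 over 6 months in marrow, 3 for the depots in ob/ob mice and 6 for the difference in HFD response between depots at 6 months. For 18 over 6 months in marrow it was also 0 with quantile normalization, with every probe set tested and with an intensity trend and robust variance. For ob/ob over chow in marrow it was 0 with centring of each array and with every probe set tested. With probe sets above the median (5.81, which left out Cxcl3 and Cxcl5) and with the set term it was 1 for 18 over 14 months in marrow, and with the set term it was 1 for HFD in marrow at 6 months. The set term turned the sign of Cxcl9 in ob/ob over HFD in epididymal preparations (0.11) and in 14 over 6 months in HFD marrow (0.37). Leaving out each array in turn gave, in marrow, 0 to 1 called for HFD at 6 months, 0 to 2 for ob/ob over chow, 0 to 2 for 18 over 6 months, 0 to 1 for ob/ob over HFD, 1 to 2 for 14 over 6 months with HFD, 0 to 1 for 18 over 14 months and 0 to 1 for the HFD response at 14 against 6 months, and 3 to 4 for the difference in HFD response between depots at 14 months. In epididymal preparations it gave 4 to 4 for HFD at either age, 8 to 9 for ob/ob over chow and 7 to 8 for ob/ob over HFD. With the replicate number as a block (replicate block) 9 members were called for ob/ob over chow in epididymal preparations, and no count of members changed; the numbers name pools only, and most pools did not correlate best with their own number. A 2-fold minimum moved 162 counts over the gene lists by more than 1.5 times and left 275 within that. Centring each array moved the share of higher calls among all calls to 50.1% for HFD in epididymal preparations at 14 months (31.6% as deposited), 47.6% for ob/ob over chow (57.6%), 28.5% for ob/ob over HFD (40.3%), 54.6% for 18 over 14 months (21.6%) and 62.8% for 18 over 6 months (35.1%). The cause of these changes was not tested. The 3 arrays of a group, and the low intensity of Cxcl3 and Cxcl5 (means of 5.58 and 5.08), limit what could be called.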
